A study of Mus musculus with 8 samples.

Results

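Mouse sarcoma cells carrying a control hairpin RNA (shSCR) were compared with cells of the same model carrying a control guide RNA (sgSCR), in 4 of the 8 bulk RNA sequencing libraries of the series. Libraries 1 and 2 of shSCR were set against libraries 1 and 2 of sgSCR, chosen by their titles, and the comparison ran over all genes. The labels describe a C57BL/6 sarcoma model made from mesenchymal stem cells by p53 knockout and raised Ccne1 (cyclin E1), a background that all 4 groups of the series share. The cells were passed as tumours through primary recipients, transduced, and grown again under the skin of secondary recipients on polyurethane scaffolds to about 1 cubic centimetre. Tumour cells were then sorted on a fluorescent marker, and total RNA was taken. The guide libraries came from cells given Cas9, whereas the texts differ on whether the hairpin cells carried Cas9 too. The other 4 libraries, labelled shMif and sgMif, carried a hairpin or a guide against Mif, the gene of macrophage migration inhibitory factor. The labels give the genotype of shMif as Mif knockdown, that of sgMif as Mif knockout and that of both controls as Mif wild type. shMif and sgMif serve here as a second pair of vector systems that shares no library with the first, but they also set a knockdown against a knockout. No source used here gives the age or sex of the mice, the sequence of either control or the number of mice per library.

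A short hairpin RNA is transcribed in the nucleus, trimmed by Drosha or Dicer and loaded into an Argonaute protein, which it directs to matching transcripts. A guide RNA stays bound to Cas9, a bacterial nuclease that cuts matching DNA. A scrambled hairpin or guide is designed to match no gene, so control cells of both systems are usually taken as a baseline for their own system only. Differences between them take in the vectors, the separate cell populations that were transduced, the tumours and the handling, and these cannot be told apart here.

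Total estimated counts were 38542409 and 51819308 reads in shSCR 1 and 2 and 37573433 and 19677400 reads in sgSCR 1 and 2, and levels are given as CPM (counts-per-million units, scaled by TMM). Whether both libraries of a group are from separate tumours is not stated, so the spread behind the p-values may be technical. Replicates were not duplicates: the chi-square of their counts, per degree of freedom, was 130.4 between the shSCR libraries and 25.7 between the sgSCR libraries. Reads on 1107 olfactory receptor genes, which are silent outside the nose in most tissues, made up 1417 CPM in shSCR 1, 490 CPM in shSCR 2 and 2372 and 1318 CPM in sgSCR 1 and 2. In each of the 4 groups these reads were more frequent in library 1 than in library 2. Mitochondrially encoded genes took 1.63 and 2.12% of reads in shSCR 1 and 2, the lowest of the 8 libraries, against 2.65 and 2.58% in sgSCR 1 and 2, so this share moved with the groups compared, and its part in the results was not tested. Transcripts annotated with a retained intron took 5.41% in shSCR 1, the highest of the 8, and 3.90% in shSCR 2, the lowest. The correlation of log2 CPM across genes, which are not independent replicates, was 0.953 within shSCR, 0.972 within sgSCR and 0.909 to 0.941 between the groups. Outside the control libraries, shSCR 2 was closer to shMif 2 (0.983) and shMif 1 (0.958) than to shSCR 1.

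Neither control was directed at Mif. Mif was at 170.2 and 375 CPM in shSCR 1 and 2 and 377 and 455 CPM in sgSCR 1 and 2, a log2 fold change of -0.61 ± 0.32 (SE, n = 2 against 2), adjusted p = 0.3, and sgSCR 1 and shSCR 2 were level. In the targeted libraries it read 277 and 222 CPM in shMif and 221 and 222 CPM in sgMif, so that both libraries labelled shMif lay above shSCR 1 and below shSCR 2. Trp53, the gene of p53, stood at 72.9 and 86.6 CPM in shSCR against 105 and 126 CPM in sgSCR, adjusted p = 0.101. Ccne1 was at 8.66 and 11.3 CPM in shSCR against 19.6 and 15.9 CPM in sgSCR, adjusted p = 0.0909. The lost part of Trp53 is not given, so its reads do not test the label.

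Of 16309 genes with enough reads to test, 655 differed between shSCR and sgSCR at an adjusted p under 0.05, which is 4.02% of the genes tested. In shSCR, 363 were higher (2.23%) and 292 were lower (1.79%). The called genes comprised 636 protein-coding genes and 19 pseudogenes. The change exceeded 2-fold in 398 of them and 8-fold in 88, of which 23 were higher and 65 lower in shSCR. The median log2 fold change over all genes tested was -0.04, and the 2 groups did not overlap for 54.6% of them. At an unadjusted p under 0.05, 3738 genes passed.

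The number of calls depended on single libraries. It was 60 without sgSCR 2, 89 without sgSCR 1, 163 without shSCR 1 and 1848 without shSCR 2, the library with few olfactory receptor reads, and 281 or 311 without one of the shMif libraries, which enter through the shared spread. Few olfactory receptor reads were not particular to shSCR 2, with 345 CPM in sgMif 2 and 509 CPM in shMif 2. Their part in the number of calls was not tested. The 4 control libraries alone gave 133 calls, 40 higher and 93 lower. All 655 genes had the same sign of log2 fold change in each of these 7 fits. They were called from these same libraries, so a kept sign was largely set by that selection and is no separate support.

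Of the 12 genes highest in shSCR relative to sgSCR, 8 encode cell surface or secreted proteins. Cldn1 (ENSMUSG00000022512, chromosome 16, 26356642 to 26371841, minus strand, mm10), the gene of a tight junction protein, read 15.1 and 11.8 CPM in shSCR 1 and 2 and 0.704 and 1.05 CPM in sgSCR 1 and 2. Both hairpin libraries lay far above both guide libraries, with a log2 fold change of 3.96 ± 0.39 (SE, n = 2 against 2), adjusted p = 0.00399. Esm1 (ENSMUSG00000042379, chromosome 13, 113209659 to 113218098, plus strand, mm10), the gene of endocan, a secreted proteoglycan, stood at 276 and 237 CPM in shSCR 1 and 2 and 27.7 and 31.6 CPM in sgSCR 1 and 2, a log2 fold change of 3.12 ± 0.19 (SE, n = 2 against 2), adjusted p = 0.0013. Thbs2, the gene of the matrix protein thrombospondin 2, was at 1595 and 1039 CPM in shSCR 1 and 2 and 200.04 and 124 CPM in sgSCR 1 and 2, a log2 fold change of 3.02 ± 0.57 (SE, n = 2 against 2), adjusted p = 0.0341. Genes with overlapping control groups could not enter the 12, so the separation of the groups was set by that rule.

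Other genes among the 12 highest had roles in signalling. Npr3, the gene of the clearance receptor for natriuretic peptides, read 48.8 and 31.2 CPM in shSCR against 4.22 and 4.39 CPM in sgSCR (3.21 ± 0.44, adjusted p = 0.0128). Pgf, the gene of placental growth factor, a ligand of the VEGF receptor FLT1, stood at 168 and 102 CPM in shSCR against 20.5 and 16.7 CPM in sgSCR (2.86 ± 0.46, adjusted p = 0.021). Npnt, the gene of nephronectin, a matrix ligand of integrin alpha 8, was at 165 and 139 CPM in shSCR against 30.1 and 17.1 CPM in sgSCR (2.68 ± 0.42, adjusted p = 0.0199). Itga8, the gene of that integrin subunit, was also higher, at 6.9 and 3.96 CPM in shSCR against 1.36 and 0.748 CPM in sgSCR (2.34 ± 0.47, adjusted p = 0.0379). Parp12, an interferon-inducible ADP-ribosyltransferase gene, read 41.3 and 76 CPM in shSCR against 11.2 and 6.98 CPM in sgSCR (2.68 ± 0.33, adjusted p = 0.00844). The remaining genes of the 12 were Vnn1, the gene of a pantetheine hydrolase, at log2 3.53, Nxf3 at 3.08, Rhbdl2, the gene of a rhomboid protease, at 2.87, Pced1b at 2.78 and Tnnt2, the gene of cardiac troponin T, at 2.68.

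**Figure D1:**
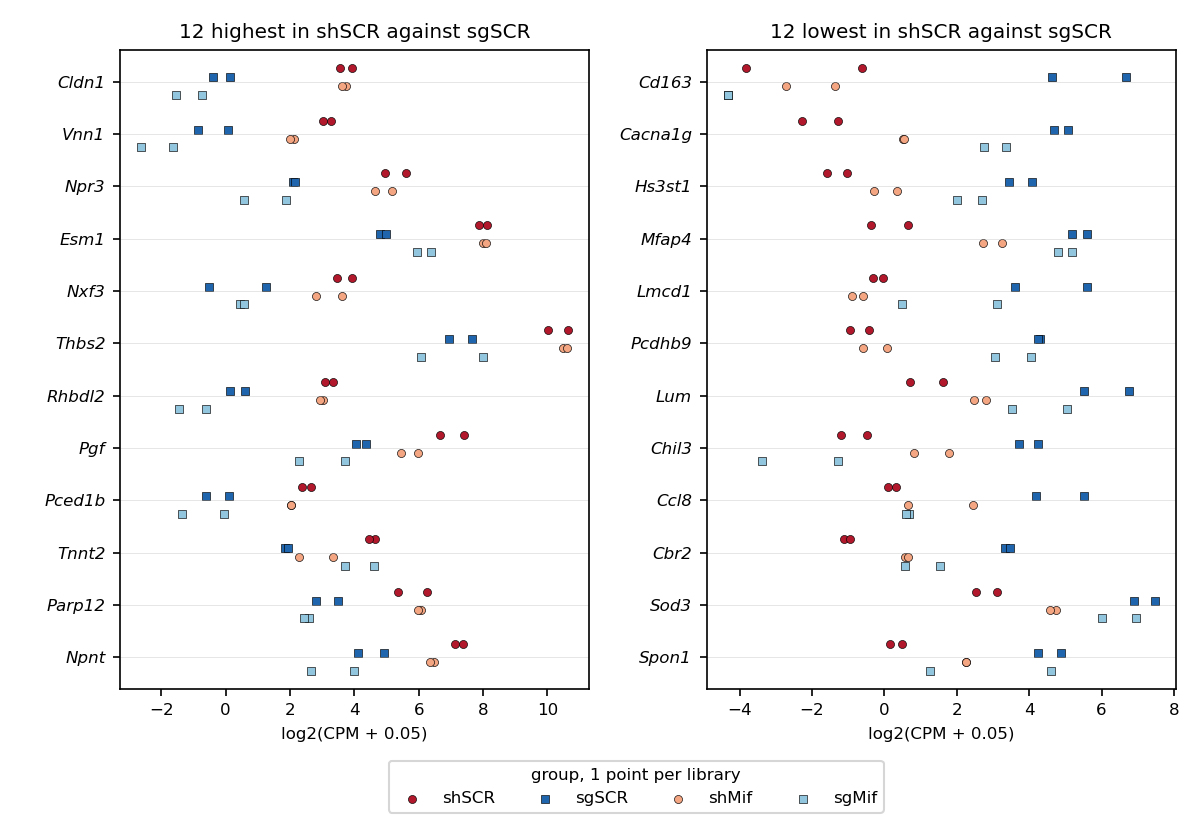
Levels of the 12 genes highest and the 12 genes lowest in shSCR against sgSCR, as log2(CPM + 0.05) on the horizontal axis, with 1 point per library for all 4 groups. For 11 of the 12 highest genes both shMif points lie above both sgMif points, and for Tnnt2 they lie below them. Cd163 was 103 and 24.9 CPM in sgSCR and under 1 CPM in the other 6 libraries.

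The 12 genes lowest in shSCR had varied roles. Cacna1g (ENSMUSG00000020866, chromosome 11, 94408391 to 94474198, minus strand, mm10), the gene of a T-type calcium channel, stood at 0.156 and 0.363 CPM in shSCR 1 and 2 and 33.8 and 25.6 CPM in sgSCR 1 and 2, a log2 fold change of -6.79 ± 0.46 (SE, n = 2 against 2), adjusted p = 0.0013. The shSCR pair held 24 reads in all and the sgSCR pair 1860. Hs3st1, the gene of a heparan sulphate sulphotransferase, was at 0.441 and 0.283 CPM in shSCR against 10.8 and 16.8 CPM in sgSCR (-5.25 ± 0.51, adjusted p = 0.00378). Sod3, the gene of extracellular superoxide dismutase, read 5.71 and 8.56 CPM in shSCR against 119 and 177 CPM in sgSCR (-4.37 ± 0.38, adjusted p = 0.0025). Mfap4 (ENSMUSG00000042436, chromosome 11, 61485431 to 61488900, plus strand, mm10), the gene of a protein bound to elastic microfibrils, stood at 0.726 and 1.53 CPM in shSCR against 48.2 and 36 CPM in sgSCR (-5.20 ± 0.40, adjusted p = 0.00165). The 12 lowest were taken from genes whose control groups did not overlap, so the separation of the groups was set by that choice.

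Among the others of the 12 lowest, the guide libraries differed clearly from each other in Lmcd1, Lum and Cd163. Lmcd1, the gene of a LIM-domain transcriptional cofactor, was at 0.752 and 0.928 CPM in shSCR against 12.1 and 48.2 CPM in sgSCR (-5.15 ± 0.98, adjusted p = 0.0341), and Lum, the gene of lumican, read 1.58 and 3.03 CPM in shSCR against 108 and 45.4 CPM in sgSCR (-5.04 ± 0.65, adjusted p = 0.0106). Spon1, the gene of the matrix protein F-spondin, stood at 1.06 and 1.35 CPM in shSCR against 29.6 and 18.9 CPM in sgSCR (-4.32 ± 0.93, adjusted p = 0.0455). Cd163, the gene of the haemoglobin scavenger receptor of macrophages, was at 0.596 and 0.0202 CPM in shSCR 1 and 2 and 103 and 24.9 CPM in sgSCR 1 and 2, with a log2 fold change of -7.77 ± 1.20 (SE, n = 2 against 2), adjusted p = 0.0232. It thus differed between the sgSCR libraries as well as between the groups. Pcdhb9, at log2 -5.06, belongs to a cluster of near-identical protocadherin genes whose reads may have been split, and is uncertain. Chil3, Ccl8 and Cbr2, which are treated with the macrophage genes, complete the 12.

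Among the 65 gene lists, the stress programme of ATF4 had the most members called in 1 direction. ATF4 is a transcription factor whose protein is made when the kinases of the integrated stress response, such as PERK or GCN2, slow general translation. It switches on genes of amino acid synthesis and import, of mitochondrial one-carbon metabolism and of its own feedback. Of 44 tested members of the list, 17 were lower in shSCR and none higher, beside 1.79% of all genes lower. The median log2 fold change of the list was -0.92, beside -0.04 for all genes tested, and 37 of the 44 values were negative. Atf4 itself read 405 and 406 CPM in shSCR 1 and 2 and 382 and 465 CPM in sgSCR 1 and 2, adjusted p = 0.814, with the 2 groups overlapping.

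Amino acid synthesis genes made up much of this group. Cth (ENSMUSG00000028179, chromosome 3, 157894248 to 157925077, minus strand, mm10), the gene of cystathionine gamma-lyase, which makes cysteine, stood at 6.15 and 6.22 CPM in shSCR 1 and 2 and 40.3 and 45.2 CPM in sgSCR 1 and 2, a log2 fold change of -2.79 ± 0.20 (SE, n = 2 against 2), adjusted p = 0.00132. Asns, the gene of asparagine synthetase, was at 65.4 and 68.8 CPM in shSCR against 138 and 138 CPM in sgSCR (-1.04 ± 0.16, adjusted p = 0.0201). Psat1 and Psph, the genes of the later steps of serine synthesis, read 77.7 and 89.1 CPM in shSCR against 166 and 169.5 CPM in sgSCR (-1.01 ± 0.15, adjusted p = 0.0158) and 5.65 and 8.66 CPM in shSCR against 19.99 and 23.7 CPM in sgSCR (-1.61 ± 0.27, adjusted p = 0.0232). The genes of proline synthesis were also lower, Pycr1 at 2.65 and 3.41 CPM in shSCR against 9.71 and 10.7 CPM in sgSCR (-1.75 ± 0.30, adjusted p = 0.026) and Aldh18a1 at log2 -0.92. Gpt2, the gene of mitochondrial alanine transaminase, stood at 32.5 and 35.7 CPM in shSCR against 96.1 and 108 CPM in sgSCR (-1.58 ± 0.16, adjusted p = 0.00447). For each of these genes the groups did not overlap, as for 54.6% of all genes tested, and the guide libraries were the higher ones. These genes had been called lower, so the separation is a description.

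One-carbon, transport and feedback genes were lower too. Shmt2, Mthfd2 and Aldh1l2, the genes of the mitochondrial folate pathway, had log2 fold changes of -1.36, -1.16 and -1.36. Pck2, the gene of mitochondrial phosphoenolpyruvate carboxykinase, was at 49.2 and 55 CPM in shSCR against 126 and 152 CPM in sgSCR (-1.41 ± 0.15, adjusted p = 0.00548). The amino acid carriers Slc7a5, Slc7a1 and Slc6a9 had log2 fold changes of -1.47, -0.83 and -1.98. Trib3, the gene of a pseudokinase that feeds back on ATF4, read 1.84 and 2.85 CPM in shSCR 1 and 2 and 23.3 and 29.3 CPM in sgSCR 1 and 2 (-3.48 ± 0.39, adjusted p = 0.00604). Sesn2, the gene of a leucine sensor, and Jdp2, the gene of a basic leucine zipper repressor, had values of -1.09 and -1.04. Some members did not pass: Ddit3, the gene of the factor CHOP, stood at 15.9 and 11.8 CPM in shSCR against 11.5 and 12.6 CPM in sgSCR, adjusted p = 0.724, and Chac1, the gene of a glutathione-degrading enzyme, was at 8.25 and 8.09 CPM in shSCR against 13.2 and 23.5 CPM in sgSCR, adjusted p = 0.0824.

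In 16 of the 17 lower ATF4 list genes both sgSCR libraries lay above the other 6 libraries, the Mif-targeted ones included, and in 13 both shSCR libraries lay below them. Genes called lower in this contrast had to be separated, and over all 292 of them the first pattern held for 61.6% and the second for 67.8%. Among all 44 tested list members, called or not, the shares were 56.8% and 31.8%, beside 8.04% and 7.13% of all genes tested. In shMif against sgMif, 1 member of the list was higher, none was lower, and its median was 0.06. The count of lower members in shSCR against sgSCR was 3 without sgSCR 2, 6 without sgSCR 1, 7 without shSCR 1, and 20 without shSCR 2.

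**Figure D2:**
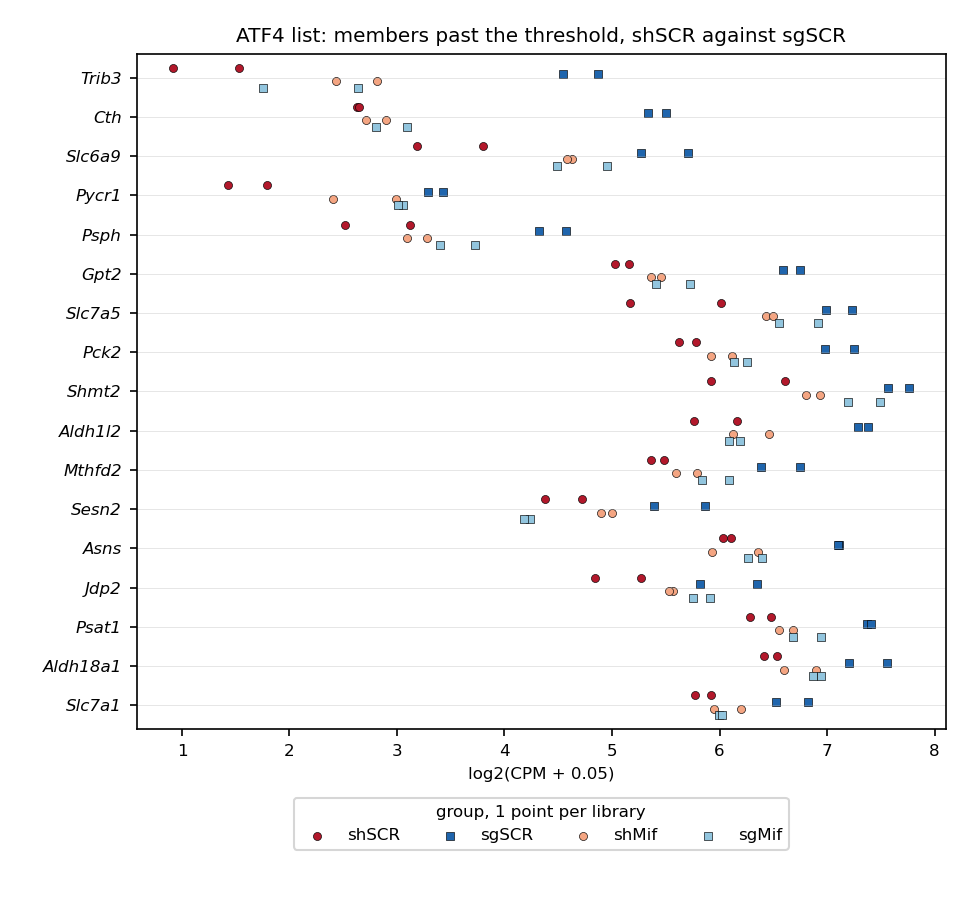
Levels of the 17 ATF4 list genes called in shSCR against sgSCR, as log2(CPM + 0.05), with 1 point per library and the 4 groups on separate lines for each gene. The sgSCR points lie to the right of all others for 16 of the 17 genes.

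ATF4 binds, together with a C/EBP protein, a composite site whose core letters are TGATGNAA. This motif was searched on both strands in the 250 bases before the annotated start of each gene, in promoter sequences from RefSeq (build GRCm38.p6). It was present in 3.45% of 32851 promoters. By gene, it was in 3.91% of 27025 genes and in 13 of the 36 tested list members whose promoters were matched. The list was written from general knowledge of ATF4, so its share is not independent of the motif. Of the 17 lower genes, 14 were matched and 4 held the motif: Asns, Jdp2, Pck2 and Pycr1. That is a smaller share than among all matched list members. These promoters are shown because they carry the letters that ATF4 is known to bind, given 5′ to 3′ on the gene's own strand with each match in capitals.
Asns (chr6:7693210-7693459, minus strand): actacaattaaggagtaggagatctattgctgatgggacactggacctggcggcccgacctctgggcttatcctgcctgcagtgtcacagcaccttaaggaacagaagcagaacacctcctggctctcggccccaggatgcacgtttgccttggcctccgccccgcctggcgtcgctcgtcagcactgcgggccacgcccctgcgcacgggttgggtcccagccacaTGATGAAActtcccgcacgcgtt
Jdp2 (chr12:85599166-85599415, plus strand): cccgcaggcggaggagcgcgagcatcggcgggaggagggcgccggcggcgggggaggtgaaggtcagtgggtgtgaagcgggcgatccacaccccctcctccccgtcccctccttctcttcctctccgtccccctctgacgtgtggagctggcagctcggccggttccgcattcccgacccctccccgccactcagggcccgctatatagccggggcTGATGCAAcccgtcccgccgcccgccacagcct
Pck2 (chr14:55540016-55540265, plus strand): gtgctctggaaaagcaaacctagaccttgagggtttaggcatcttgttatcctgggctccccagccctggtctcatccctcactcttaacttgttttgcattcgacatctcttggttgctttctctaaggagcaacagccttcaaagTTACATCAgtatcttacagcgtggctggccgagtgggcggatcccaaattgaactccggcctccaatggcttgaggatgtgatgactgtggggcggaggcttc
Pycr1 (chr11:120643749-120643998, minus strand): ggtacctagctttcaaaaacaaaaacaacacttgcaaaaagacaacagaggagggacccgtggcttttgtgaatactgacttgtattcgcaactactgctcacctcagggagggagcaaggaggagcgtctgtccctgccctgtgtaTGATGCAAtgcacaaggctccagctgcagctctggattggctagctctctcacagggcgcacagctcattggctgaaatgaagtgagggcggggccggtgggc
In Pck2 the match is on the opposite strand. The matches began 23 bases before the RefSeq start in Asns, 33 in Jdp2 and 103 in both Pck2 and Pycr1. A match is a description of letters and not of binding.

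Chaperone genes of the endoplasmic reticulum went the other way from the ATF4 list. Secretory cells raise these genes through ATF6 and XBP1, the other arms of the unfolded protein response. Of 21 tested members of that list, 3 were higher in shSCR and none lower, beside 2.23% of all genes higher, and the list median was 0.49. Hspa5 (ENSMUSG00000026864, chromosome 2, 34771970 to 34777547, plus strand, mm10), the gene of the chaperone BiP, read 1742 and 1589 CPM in shSCR 1 and 2 and 932 and 804 CPM in sgSCR 1 and 2, a log2 fold change of 0.94 ± 0.14 (SE, n = 2 against 2), adjusted p = 0.0163. Hsp90b1, the gene of the chaperone GRP94, stood at 1593 and 1075 CPM in shSCR against 743 and 639 CPM in sgSCR (0.95 ± 0.20, adjusted p = 0.0431). Atf6 itself was at 132 and 135 CPM in shSCR against 62.5 and 66.2 CPM in sgSCR (1.06 ± 0.13, adjusted p = 0.00812). In all 3, both shSCR libraries lay above the other 6 and both sgSCR libraries lay below the other 6. These genes had been called higher, so the separation is a description. Among all 21 tested members, called or not, 10 had both sgSCR libraries below all others and 4 had both shSCR libraries above. Over all genes tested these patterns held for 9.03% and 9.52%. In 1 member both sgSCR libraries lay above all others, and in 0 both shSCR libraries lay below. In the list, 0 members were called without sgSCR 1 or sgSCR 2 and 6 were higher and 1 lower without shSCR 2.

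The endoplasmic reticulum stress element, CCAAT and CCACG with 9 bases between them on either strand, was present in 0.113% of the promoters. By gene, it was in 0.13% of all and in 8 of the 18 matched members of the unfolded protein response list. That list too was written from general knowledge. Both called genes with a matched promoter held it, Hsp90b1 in 2 places, on opposite strands. Their promoters are shown, from the same source and in the same form, because both genes were called and hold the element. Members that held it and were not called were Calr, Canx, Pdia6, Dnajc3, Creld2 and Syvn1, the last at log2 -0.45. A part of the element in the change was not tested.
Hspa5 (chr2:34771840-34772089, plus strand): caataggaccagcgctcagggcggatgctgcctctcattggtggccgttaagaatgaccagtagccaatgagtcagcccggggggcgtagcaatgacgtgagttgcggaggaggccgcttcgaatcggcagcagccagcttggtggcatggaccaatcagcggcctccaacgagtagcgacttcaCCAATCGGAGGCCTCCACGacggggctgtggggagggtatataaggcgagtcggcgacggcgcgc
Hsp90b1 (chr10:86705445-86705694, minus strand): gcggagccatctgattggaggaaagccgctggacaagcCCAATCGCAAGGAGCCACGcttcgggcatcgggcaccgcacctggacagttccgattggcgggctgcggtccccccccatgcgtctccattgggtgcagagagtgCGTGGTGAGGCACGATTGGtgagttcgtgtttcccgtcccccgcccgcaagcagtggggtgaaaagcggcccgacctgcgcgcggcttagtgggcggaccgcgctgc
The first match began 65 bases before the RefSeq start in Hspa5 and 212 bases before it in Hsp90b1. The outermost GENCODE start lies further upstream in 5 of these 6 genes, so that 120 bases of the Hspa5 window, 65 of the Hsp90b1 window, 45 of the Asns window, 21 of the Pycr1 window and the whole of the Jdp2 window fall inside the GENCODE gene.

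Cytosolic chaperones and energy genes were higher in shSCR in small numbers. In the heat shock list, 4 of 21 tested members were higher and none lower, beside 2.23% of all genes higher and 1.79% lower. Hspa4l and Hspa4, genes of HSP110-type chaperones, read 309.5 and 269 CPM in shSCR against 123 and 110.03 CPM in sgSCR (1.31 ± 0.13, adjusted p = 0.00454) and 434 and 345 CPM in shSCR against 203 and 179 CPM in sgSCR (1.03 ± 0.16, adjusted p = 0.0179). Hspd1 and Hspe1, which encode the mitochondrial chaperonin pair HSP60 and HSP10, had log2 fold changes of 0.65 and 0.78. In the glycolysis list, 4 of 22 were higher and none lower, with a median of 0.41. Slc2a1 and Slc2a3, the genes of glucose carriers, stood at 1819 and 1236 CPM in shSCR against 759 and 852 CPM in sgSCR (0.92 ± 0.19, adjusted p = 0.0409) and 64.5 and 42.4 CPM in shSCR against 23 and 14.1 CPM in sgSCR (1.52 ± 0.28, adjusted p = 0.0308). Pfkm and Pkm, the genes of phosphofructokinase and pyruvate kinase, had log2 fold changes of 0.66 and 0.68. Of 78 nuclear genes of the respiratory chain, 4 were higher, Cox6c, Ndufb3, Uqcrh and Sdha, at log2 1.06, 1.03, 0.78 and 0.63, and none was lower. Higher members of the heat shock list numbered 0 without sgSCR 2, 1 without sgSCR 1, 2 without sgMif 1 or sgMif 2 or shMif 1 or shMif 2 or shSCR 1, 8 without shSCR 2. Those of the glycolysis list numbered 0 without sgSCR 1 or sgSCR 2 or shMif 1 or shMif 2 or shSCR 1, 1 without sgMif 1 or sgMif 2, 9 without shSCR 2, and those of the respiratory chain list 0 without sgSCR 1 or sgSCR 2 or shSCR 1, 1 without shMif 1 or shMif 2, 2 without sgMif 1 or sgMif 2, 10 without shSCR 2. Without shSCR 2, 2 heat shock and 10 respiratory chain genes were also lower.

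Matrix genes were examined in 6 lists with a negative median log2 fold change in each. The related list of adhesion and laminin genes, given below, had a positive median of 0.36. Elastic fibres are built of elastin on a scaffold of fibrillin microfibrils, with fibulins and other adaptor proteins. In that list, 7 of 17 tested members were lower in shSCR and none higher, beside 1.79% of all genes lower, with a median of -0.90. Fbln5, the gene of a fibulin that elastin assembly needs, was at 10.9 and 12.9 CPM in shSCR 1 and 2 and 45 and 62.4 CPM in sgSCR 1 and 2 (-2.17 ± 0.21, adjusted p = 0.00358). Fbln2, the gene of a further fibulin, read 919.7 and 1052 CPM in shSCR against 2021 and 2264 CPM in sgSCR (-1.12 ± 0.14, adjusted p = 0.0106). Mfap2 and Mfap5, genes of microfibril glycoproteins, stood at 7.73 and 15.6 CPM in shSCR against 37.6 and 46.2 CPM in sgSCR (-1.84 ± 0.34, adjusted p = 0.0305) and 1.74 and 1.72 CPM in shSCR against 5.51 and 8.62 CPM in sgSCR (-2.03 ± 0.43, adjusted p = 0.0429). Mfap4, above, Fbn2, the gene of fibrillin 2, and Efemp2, the gene of fibulin 4, were the other lower members. The count was 2 without sgSCR 1 or sgSCR 2, 3 without shSCR 1, 4 without shMif 2.

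Small leucine-rich proteoglycans coat collagen fibrils and set their width. Of 13 tested, 4 were lower in shSCR and none higher, beside 1.79% of all genes lower, with a median of -1.12. Dcn, the gene of decorin, was at 491 and 551 CPM in shSCR 1 and 2 and 1238 and 1028 CPM in sgSCR 1 and 2 (-1.12 ± 0.22, adjusted p = 0.037). Aspn, the gene of asporin, read 32.1 and 28.8 CPM in shSCR against 69 and 66.3 CPM in sgSCR (-1.15 ± 0.24, adjusted p = 0.04), and Lum is given above. Fmod, the gene of fibromodulin, had no read in shSCR and 1.13 and 0.798 CPM in sgSCR, 61 reads in all. Against a floor of 3 counts per library it was at least 14.0-fold lower in shSCR. The count of lower members was 1 without sgSCR 1 or sgSCR 2 or shSCR 1.

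Enzymes that finish and cut the matrix were called in both directions. Among collagen cross-linking and folding genes, 4 of 25 were lower and 1 was higher, beside 1.79% of all genes lower and 2.23% higher. Lox, the gene of lysyl oxidase, which cross-links collagen and elastin, stood at 369 and 449.8 CPM in shSCR 1 and 2 and 1078 and 1233 CPM in sgSCR 1 and 2 (-1.50 ± 0.16, adjusted p = 0.00471). Loxl3, P4ha3 and Adamts2, the last the gene of a procollagen peptidase, had log2 fold changes of -1.25, -1.65 and -2.59, whereas P4ha1, the gene of a prolyl hydroxylase subunit, was higher at 792 and 648 CPM in shSCR against 351 and 378 CPM in sgSCR (0.98 ± 0.18, adjusted p = 0.0295). Among proteases and their inhibitors, 6 of 40 were lower and 3 higher. The 2 plasminogen activators went opposite ways: Plat, the tissue type, was at 172 and 172 CPM in shSCR against 445 and 411 CPM in sgSCR (-1.32 ± 0.15, adjusted p = 0.0062), and Plau, the urokinase type, read 277 and 224 CPM in shSCR against 71.5 and 131 CPM in sgSCR (1.31 ± 0.27, adjusted p = 0.041). Ctsl, the gene of cathepsin L, and Adamts9 were the other higher members, at log2 0.79 and 0.88. Adamts2, Adamts12, Adamts16, Mmp11 and Mmp28 were lower, at -2.59, -2.07, -4.19, -0.97 and -1.50. Without shSCR 2 the lower members were 9 in each list. Lower members of the cross-linking list numbered 1 without sgSCR 1 and 2 without sgSCR 2 or shSCR 1, and those of the protease list 1 without sgSCR 1 or shSCR 1 and 2 without sgSCR 2.

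Collagen genes were mostly not called. Of 39 tested, 2 were lower and 1 higher, beside 1.79% of all genes lower and 2.23% higher, and the list median was -0.48. Col12a1, the gene of a fibril-associated collagen, stood at 355 and 274 CPM in shSCR against 935 and 899.6 CPM in sgSCR (-1.54 ± 0.33, adjusted p = 0.0429), and Col4a5, the gene of a basement membrane chain, was at 23.1 and 24.1 CPM in shSCR against 10.6 and 11.3 CPM in sgSCR (1.11 ± 0.18, adjusted p = 0.0222). Col1a1 read 1979 and 3587 CPM in shSCR 1 and 2 and 7106 and 6885 CPM in sgSCR 1 and 2, adjusted p = 0.0529. Among glycoproteins of the matrix, 3 of 28 were higher and 2 lower. Fn1, the gene of fibronectin, stood at 12460.5 and 12005 CPM in shSCR against 6696 and 7633 CPM in sgSCR (0.77 ± 0.17, adjusted p = 0.046), whereas Thbs3 and Has2, the gene of a hyaluronan synthase, were lower at log2 -1.15 and -2.17. Without either sgSCR library no member of these lists was called, and without shSCR 2 the lower collagen genes numbered 8.

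Integrin and laminin genes were called in both directions. Of 32 adhesion genes, 6 were higher and 3 lower, beside 2.23% of all genes higher and 1.79% lower, with a median of 0.36. Itgb1, the gene of the beta 1 subunit shared by many integrins, was at 1918 and 1623 CPM in shSCR 1 and 2 and 926 and 995 CPM in sgSCR 1 and 2 (0.88 ± 0.18, adjusted p = 0.0377). The partner subunit genes Itga2, Itga6, Itga7 and Itga8 were higher, at log2 2.51, 0.73, 1.21 and 2.34, and Lamc1, the gene of a laminin chain that such integrins bind, was at 0.69. Itga11, the gene of a collagen-binding subunit of mesenchymal cells, was lower, at 0.156 and 0.565 CPM in shSCR against 4.43 and 4.44 CPM in sgSCR (-3.59 ± 0.74, adjusted p = 0.0404), as were Cdh11 and Cdh13, cadherin genes, at log2 -1.88 and -0.81. Without sgSCR 1, sgSCR 2 or shSCR 1 no member was called, and the higher members were 1 without either shMif library and 2 without either sgMif library.

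Several chemokine genes were lower in shSCR. Chemokines are small secreted proteins that draw leukocytes into tissue. Of 28 tested ligand genes, 7 were lower and 1 higher, beside 1.79% of all genes lower and 2.23% higher, and the list median was -0.34. Ccl2 and Ccl7, ligands of the monocyte receptor CCR2, read 20.5 and 22.1 CPM in shSCR 1 and 2 and 83.7 and 70.3 CPM in sgSCR 1 and 2 (-1.85 ± 0.15, adjusted p = 0.00202) and 3.97 and 5.47 CPM in shSCR against 31.5 and 18 CPM in sgSCR (-2.39 ± 0.30, adjusted p = 0.0103). Ccl11 and Ccl24, ligands of the eosinophil receptor CCR3, stood at 1.06 and 0.525 CPM in shSCR against 15.2 and 10.8 CPM in sgSCR (-4.04 ± 0.51, adjusted p = 0.00975) and 0.467 and 0.141 CPM in shSCR against 8.68 and 5.33 CPM in sgSCR (-4.53 ± 0.94, adjusted p = 0.041). Cxcl12, the ligand of CXCR4, was at 49.8 and 74.3 CPM in shSCR against 199 and 231 CPM in sgSCR (-1.79 ± 0.24, adjusted p = 0.0113). Cxcl5, a ligand of the neutrophil receptor CXCR2, read 0.0519 and 0.0404 CPM in shSCR against 9.08 and 4.04 CPM in sgSCR (-7.06 ± 0.78, adjusted p = 0.00588). Ccl8 was the remaining lower member, and Cx3cl1, the gene of fractalkine, was higher at 96.8 and 126 CPM in shSCR against 54.6 and 59.5 CPM in sgSCR (0.96 ± 0.16, adjusted p = 0.0216). In every one of these called genes both control groups were apart, as they were for 54.6% of all genes tested. Lower members numbered 4 without either sgSCR library, and the list median was 0.08 without sgSCR 1.

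Some other genes of signals to myeloid cells were lower as well. Of 36 cytokine and growth factor genes of that kind, 4 were lower and none higher, beside 1.79% of all genes lower and 2.23% higher. The list median was -0.17, with 21 values negative and 15 positive. Summed over the list, the level was 6769 and 6366 CPM in shSCR 1 and 2 and 5510 and 6242 CPM in sgSCR 1 and 2. Il33, the gene of an alarmin of the interleukin 1 family, stood at 2.33 and 2.42 CPM in shSCR 1 and 2 and 41.7 and 38.3 CPM in sgSCR 1 and 2, a log2 fold change of -4.07 ± 0.28 (SE, n = 2 against 2), adjusted p = 0.0013. Rarres2, the gene of the chemoattractant chemerin, was at 3.03 and 3.13 CPM in shSCR against 47.6 and 32.6 CPM in sgSCR (-3.70 ± 0.42, adjusted p = 0.0062). Csf1, the gene of the growth factor of macrophages, read 126 and 158 CPM in shSCR against 285 and 304 CPM in sgSCR (-1.05 ± 0.14, adjusted p = 0.0121), and Nos2, the gene of inducible nitric oxide synthase, stood at 54.2 and 41.6 CPM in shSCR against 183 and 167 CPM in sgSCR (-1.87 ± 0.31, adjusted p = 0.0231). The count was 2 without sgSCR 1 or sgSCR 2, 7 without shSCR 2. Among 18 complement genes, C3, C4b and C1ra were lower, at log2 -1.97, -2.10 and -1.31, and C2 and Masp1 were higher, at 2.23 and 1.41. The lower complement genes were 0 without sgSCR 2, 1 without sgSCR 1 and 5 without either sgMif library, and the higher ones were 0 without either sgSCR library.

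Of 28 general macrophage markers, 1 was lower in shSCR and none higher, beside 1.79% of all genes lower and 2.23% higher. Their values were negative in 13 and positive in 15. At an unadjusted p under 0.05 stood 10, and DESeq2 called 6, beside 3738 and 1948 of all 16309 genes. Lyz2 was at 83.7 and 85.5 CPM in shSCR against 38.2 and 30.3 CPM in sgSCR. Mrc1 went the other way, at 15.5 and 12.4 CPM in shSCR against 107 and 34 CPM in sgSCR. Summed over the 28, the level was 458 and 519 CPM in shSCR 1 and 2 and 681 and 373 CPM in sgSCR 1 and 2, so that shSCR lay between the sgSCR libraries. The lower gene was Cd163, and no marker of this list was at 0 in all 4 control libraries. Csf1r, the receptor gene that defines the lineage, was at 16.2 and 18.3 CPM in shSCR against 23.1 and 11.4 CPM in sgSCR, adjusted p = 0.997. Markers of alternatively activated macrophages were lower in 4 of 14 tested members, Cd163, Chil3, Ccl8 and Cbr2, and their sum was 183 and 159 CPM in shSCR 1 and 2 and 496 and 249 CPM in sgSCR 1 and 2. Chil3, the gene of a chitinase-like protein, read 0.389 and 0.666 CPM in shSCR 1 and 2 and 13.2 and 18.9 CPM in sgSCR 1 and 2 (-4.90 ± 0.72, adjusted p = 0.0167). Ccl8 stood at 1.01 and 1.19 CPM in shSCR against 45.6 and 18 CPM in sgSCR (-4.85 ± 0.68, adjusted p = 0.0145), and Cbr2, the gene of a carbonyl reductase, was at 0.415 and 0.464 CPM in shSCR against 10.01 and 11.1 CPM in sgSCR (-4.57 ± 0.47, adjusted p = 0.00454). Cd209f was at 0 in all 4 control libraries. These markers moved with the chemokine list, which shares Ccl8 with them, and their part in that result was not tested. In sorted bulk cells, fewer cells of a type and less RNA per cell cannot be told apart. The count was 1 without sgSCR 1, 2 without sgSCR 2 or shSCR 1.

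Other cell types that a tumour sort could hold were also measured. Markers of host skin fibroblasts summed to 1412 and 1391 CPM in shSCR 1 and 2 and 2017 and 1830.2 CPM in sgSCR 1 and 2. Of 13 members, 3 were lower in shSCR, Dpt, Dcn and Mfap5, beside 1.79% of all genes. The lower sum rested on Dcn: the other 12 members summed to 920 and 840 CPM in shSCR against 779 and 802 CPM in sgSCR, the other way. Called members of the list were 0 without sgSCR 1 or sgSCR 2 or shSCR 1, 1 without shMif 1 or shMif 2, and 0 from the control libraries alone. These fibroblast markers moved with the matrix lists, which hold Dcn and Mfap5 too, and their part in those results was not tested. Endothelial markers summed to 254 and 90.1 CPM in shSCR 1 and 2 and 323 and 328 CPM in sgSCR 1 and 2, with 0 of 20 called by edgeR or DESeq2 and 2 at an unadjusted p under 0.05. Most of that sum was Pecam1, at 195 and 20.8 CPM in shSCR against 246 and 261 CPM in sgSCR, and the other 19 members summed to 58.8 and 69.3 CPM in shSCR against 77 and 67.6 CPM in sgSCR. B and plasma cell markers summed to 66.5 and 17.2 CPM in shSCR 1 and 2 and 115 and 199 CPM in sgSCR 1 and 2, with 0 of 9 called by edgeR, 4 at an unadjusted p under 0.05 and 3 called by DESeq2. Without Ebf1, the highest, the other members summed to 16 and 11.6 CPM in shSCR against 41 and 99 CPM in sgSCR. Over all 16309 genes, 3738 stood at an unadjusted p under 0.05 and DESeq2 called 1948. Cdsn, the gene of corneodesmosin, a protein of cornified skin, was lower in shSCR with 1 read against 578 in sgSCR, a ratio of 851 (95% exact counting interval 152 to 33682, counting error only). It was the 1 called member of 11 tested skin markers, and Krt5, the keratin gene of the basal skin layer, was at 0 in all 4 control libraries.

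Early response and signalling genes were called singly. Egr1, a gene switched on within minutes of growth factor signals or tissue digestion, read 63.3 and 112 CPM in shSCR 1 and 2 and 493 and 485 CPM in sgSCR 1 and 2 (-2.48 ± 0.26, adjusted p = 0.00471), and Egr2 stood at 7.39 and 7.59 CPM in shSCR against 38.3 and 31.8 CPM in sgSCR (-2.23 ± 0.29, adjusted p = 0.0103). Myc was the third lower member of 26 immediate-early genes, at log2 -0.65, and none was higher, beside 1.79% of all genes lower and 2.23% higher. The summed level of that list was 10367 and 16965 CPM in shSCR 1 and 2 and 17203 and 19256 CPM in sgSCR 1 and 2, so the hairpin libraries differed from each other. Lower members of the list were 1 without either sgSCR library and 15 without shSCR 2. Dkk2, the gene of a secreted Wnt antagonist, was higher, at 313 and 269 CPM in shSCR 1 and 2 and 63.5 and 45.5 CPM in sgSCR 1 and 2 (2.42 ± 0.19, adjusted p = 0.00197), while Fzd1, Sfrp1 and Wnt2b were the 3 lower members of 39 Wnt genes. Lower Wnt genes numbered 0 without sgSCR 1 or sgSCR 2, 1 without shMif 1 or shMif 2 or shSCR 1. Bmp4, the gene of a bone morphogenetic protein, was at 42.1 and 45.7 CPM in shSCR against 7.42 and 8.72 CPM in sgSCR (2.45 ± 0.21, adjusted p = 0.00228), and Id3, a target of such signals, read 10.04 and 17.4 CPM in shSCR against 32.7 and 34.2 CPM in sgSCR (-1.29 ± 0.26, adjusted p = 0.0382). Egfr stood at 62 and 51.6 CPM in shSCR against 25.2 and 14.9 CPM in sgSCR (1.50 ± 0.30, adjusted p = 0.0371), whereas Erbb2, the gene of a related receptor, and Nrg1, the gene of a ligand of its partners, were lower at log2 -1.30 and -1.20. No gene of the EGF list was called without sgSCR 1, sgSCR 2 or shSCR 1, Egfr was not called without sgMif 1 or sgMif 2, and 1 gene of the list was lower without shMif 2. Igf2r, the gene of the receptor that clears IGF2, was at 199 and 137 CPM in shSCR against 31.2 and 24.8 CPM in sgSCR (2.58 ± 0.22, adjusted p = 0.00228). Nes, the gene of the intermediate filament nestin, found in stem and progenitor cells, read 489 and 524 CPM in shSCR 1 and 2 and 183 and 164 CPM in sgSCR 1 and 2, a log2 fold change of 1.55 ± 0.13 (SE, n = 2 against 2), adjusted p = 0.00228.

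**Figure D3:**
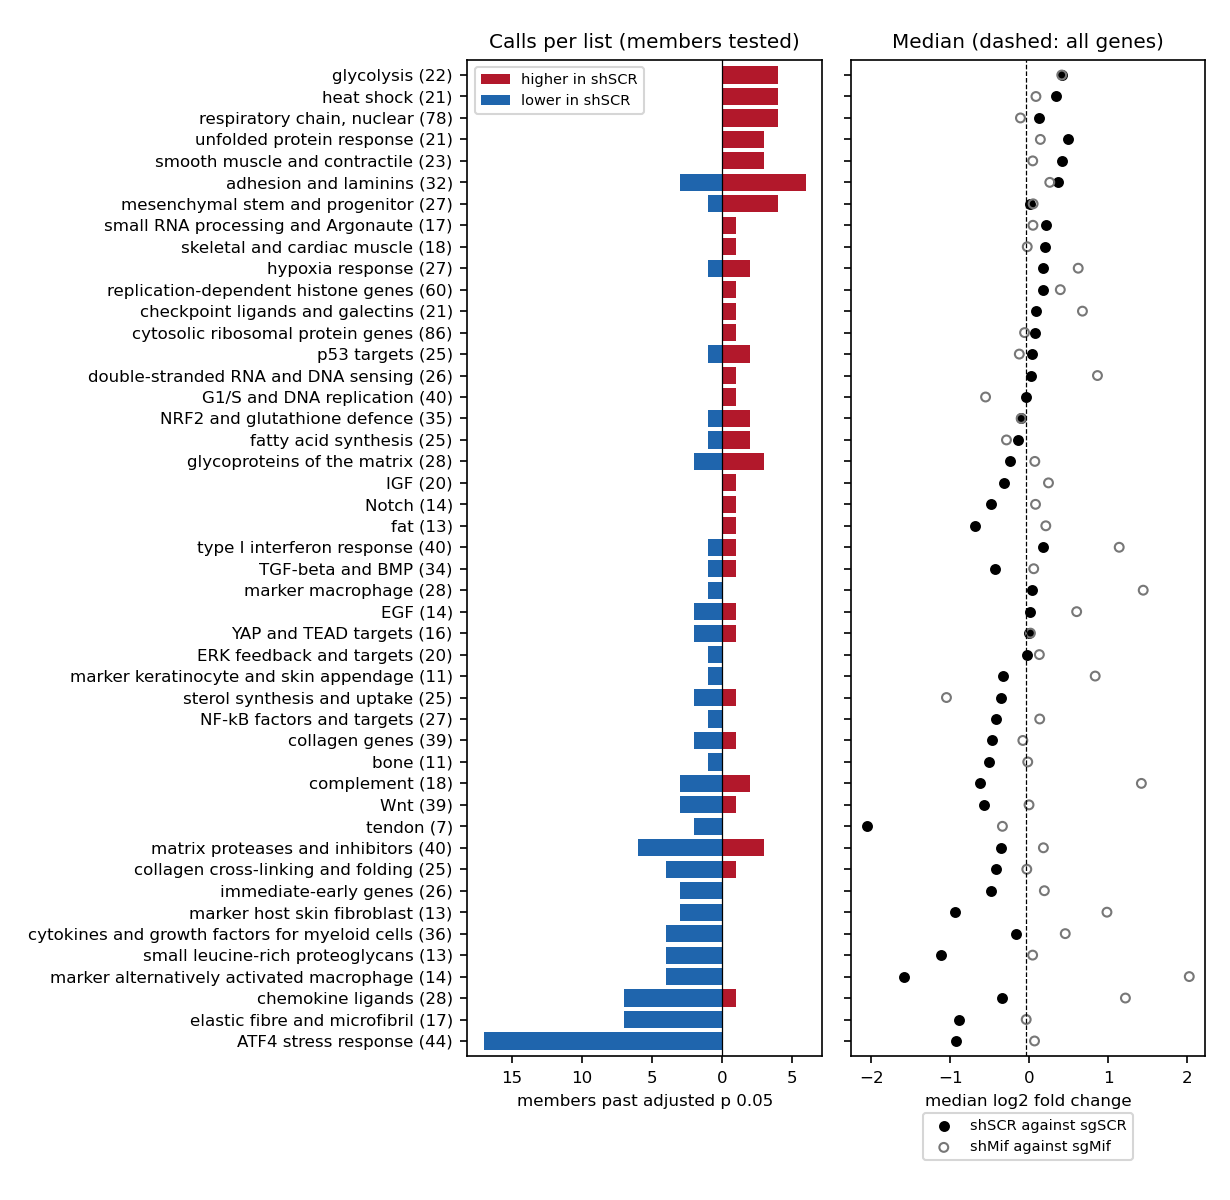
Left, the number of members of each gene list that were higher (red, to the right) or lower (blue, to the left) in shSCR against sgSCR, with the number tested in brackets, for lists with at least 1 call. Right, the median log2 fold change of the members in shSCR against sgSCR (filled) and in shMif against sgMif (open). The ATF4 list has the most lower calls, 17 of 44, with a median of -0.92 in the control libraries and 0.06 in the targeted ones.

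Several programmes had 3 calls or fewer. Over all 16309 genes, edgeR called 4.02%, 3738 stood at an unadjusted p under 0.05 and DESeq2 called 1948. Of 36 mitosis genes and 35 DNA repair genes, edgeR called 0, with 7 in each at an unadjusted p under 0.05 and 4 and 3 called by DESeq2, and with medians of -0.07 and -0.05. Of 40 genes of G1/S entry and replication, Mcm6, a subunit of the replicative helicase, was the 1 call, at log2 0.77. In that list 9 stood at an unadjusted p under 0.05 and DESeq2 called 4. Of 25 p53 targets, Plk2 and Polk were higher and Sesn2 was lower, and none was called without sgSCR 1 or sgSCR 2. Among the 25 p53 targets, 13 stood at an unadjusted p under 0.05, beside 3738 of all 16309 genes, and DESeq2 called 6. The 3 calls of edgeR stand beside 4.02% of all genes called. Cdkn1a, the gene of the cell cycle inhibitor p21, stood at 67.5 and 67.6 CPM in shSCR against 123 and 115 CPM in sgSCR, adjusted p = 0.0584. Of 33 Hox genes and 23 MHC class I presentation genes, edgeR called 0, with 6 and 3 at an unadjusted p under 0.05 and 3 in each called by DESeq2. Of 8 genes for MIF, its homologue DDT and their partners, 0 were called and 0 passed at an unadjusted p under 0.05 or with DESeq2. Finally, 1 of 86 ribosomal protein genes, Rpl30, was higher, with 18 at an unadjusted p under 0.05 and 10 called by DESeq2.

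The genes that handle hairpins and sense double-stranded RNA were examined because only 1 of the vector systems makes a hairpin. Of 17 genes of small RNA processing, 1 was higher, Adarb1, the gene of an RNA editing enzyme, at 106 and 91.9 CPM in shSCR against 46.8 and 48.4 CPM in sgSCR (1.06 ± 0.17, adjusted p = 0.0206). Drosha, Dicer1 and Xpo5, which cut and export hairpin precursors, were at 153 and 136 CPM in shSCR against 119.95 and 127 CPM in sgSCR, 55.9 and 59 CPM in shSCR against 48.8 and 48.6 CPM in sgSCR and 83 and 85.3 CPM in shSCR against 85.1 and 79.6 CPM in sgSCR, with adjusted p-values of 0.334, 0.313 and 0.895. Ago2, the gene of the slicing Argonaute, read 334 and 328 CPM in shSCR against 219 and 245 CPM in sgSCR, adjusted p = 0.0645. Of 26 sensor genes, 1 was higher: Ifih1, the gene of the cytosolic RNA sensor MDA5, at 24.9 and 40.02 CPM in shSCR 1 and 2 and 10.5 and 11.2 CPM in sgSCR 1 and 2 (1.58 ± 0.28, adjusted p = 0.0272). Of 40 type I interferon response genes, Ifih1 was higher and Ifi27l2a was lower, and the list median was 0.17. Over all genes, 2.23% were higher and 1.79% lower. In shMif against sgMif, 7 of the 40 were higher and none lower, beside 1.18% of all genes higher, with a median of 1.14. The difference between the 2 comparisons was called by edgeR for 0 of the 40, with 14 at an unadjusted p under 0.05 and 7 called by DESeq2. Over all 16309 genes, that difference stood at an unadjusted p under 0.05 in 2571, and DESeq2 called it in 654.

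The comparison of shMif with sgMif holds the change of vector system in other libraries, together with that from Mif knockout to Mif knockdown, and the 2 changes cannot be told apart in it. It called 328 of 16309 genes (2.01%), of which 192 were higher in shMif (1.18%) and 136 lower (0.834%). In both comparisons 102 genes were called, which is 15.6% of the 655 and 31.1% of the 328. Of these, 59 were higher in the hairpin libraries of both pairs and 41 lower in both. The exceptions were Enpp2 and Dcn, which were lower in shSCR and higher in shMif. Of the 655 genes, 76.5% had the same sign in the other pair, beside 53.2% of all genes tested. Across the 655 genes, which share libraries and are not independent, Pearson's r of the log2 fold changes was 0.549, and across all genes it was 0.069.

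Of the 12 highest genes, 9 were also called higher in shMif. Cldn1 stood at 13.2 and 12.3 CPM in shMif and 0.548 and 0.293 CPM in sgMif (4.97 ± 0.42, adjusted p = 0.00359), and Esm1 was at 257 and 274 CPM in shMif and 61.3 and 84.2 CPM in sgMif (1.86 ± 0.18, adjusted p = 0.0055). Thbs2 read 1442 and 1563 CPM in shMif and 255 and 66.5 CPM in sgMif (3.23 ± 0.58, adjusted p = 0.0369). Dkk2 and Igf2r, from the signalling lists, were likewise higher in shMif, at 289 and 252 CPM in shMif and 53.7 and 48.1 CPM in sgMif (2.41 ± 0.19, adjusted p = 0.00359) and 106 and 127 CPM in shMif and 36.5 and 32.8 CPM in sgMif (1.75 ± 0.22, adjusted p = 0.0146). Nxf3 and Pced1b had log2 fold changes of 2.80 and 2.72 that missed the threshold. Tnnt2 stood at 4.79 and 10.2 CPM in shMif and 24.3 and 13.1 CPM in sgMif (-1.31 ± 0.40, adjusted p = 0.156), lower in both hairpin libraries, and the test of its difference between the comparisons gave 3.99 ± 0.57, adjusted p = 0.0719. Of the 12 lowest genes, Cacna1g, Hs3st1, Mfap4, Pcdhb9 and Sod3 were also lower in shMif.

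**Figure D4:**
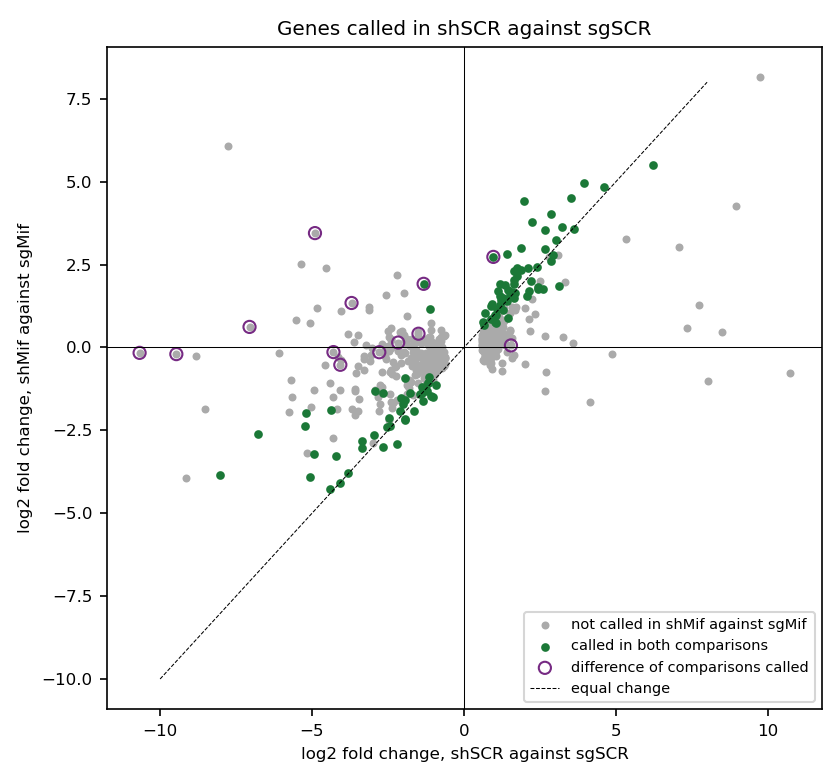
Log2 fold changes of the 655 genes called in shSCR against sgSCR (horizontal) and in shMif against sgMif (vertical), 1 point per gene. Of the 102 genes called in both (green), 100 lie in the quadrants of equal sign, and circles mark the 13 genes whose change differed between the comparisons.

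The difference between the comparisons was itself tested, and 15 genes passed (0.092%), 14 with a more negative value in the control libraries (0.0858%) and 1, Nes, with a more positive one (0.00613%). At an unadjusted p under 0.05 the difference passed for 2571 genes. Of the 15, 13 were also called in shSCR against sgSCR. Nes was at 328 and 369 CPM in shMif and 335 and 333 CPM in sgMif, level between the systems, and its difference was 1.48 ± 0.18, adjusted p = 0.0487. Il33 read 5.1 and 3.98 CPM in shMif and 7.8 and 5.25 CPM in sgMif, and its difference was -3.55 ± 0.36, adjusted p = 0.0375. Cth stood at 6.49 and 7.42 CPM in shMif and 8.49 and 6.94 CPM in sgMif, and its difference was -2.64 ± 0.28, adjusted p = 0.0375. Ccn5, the gene of a matricellular protein of the CCN family, was at 1.82 and 1.51 CPM in shSCR against 39.3 and 26 CPM in sgSCR, and 18.3 and 23.8 CPM in shMif and 22.8 and 23.6 CPM in sgMif, with a difference of -4.16 ± 0.36, adjusted p = 0.0375. The shSCR libraries were low, and the other 6 libraries stood at 18.3 CPM or more. The number of such genes was 0 in 5 of the 8 fits that left out 1 library, namely without sgMif 2 or any 1 of the sgSCR and shMif libraries, and 527 without shSCR 2. In those 5 fits edgeR gave 1338 to 2742 genes at an unadjusted p under 0.05, and DESeq2 on all libraries called 654.

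Across the 655 genes the control groups were apart from the rest of the series about equally often. Of the 363 genes higher in shSCR, 243 (66.9%) had both shSCR libraries above the other 6 and 230 (63.4%) had both sgSCR libraries below them. Of the 292 lower genes, 198 (67.8%) had both shSCR libraries below all others and 180 (61.6%) had both sgSCR libraries above all others. Over all genes tested these 4 patterns held for 9.52%, 9.03%, 7.13% and 8.04%. Genes called in this contrast had to be separated, so the shares are descriptions.

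Medians by chromosome ranged from -0.19 to 0.32. Tumour lines often gain or lose chromosomes, and a median over many genes shows small shifts that single genes do not. Over the 11724 genes whose mean log2 CPM reached 1, the median log2 fold change was 0.02, and 2.96% were called higher and 2.12% lower. On chromosome 4 the median over 723 genes was 0.32, 0.26 from shSCR 1 and 0.36 from shSCR 2 against the sgSCR mean, and 8.30% of genes were called higher. In shMif against sgMif it was 0.20. Chromosome 15 had medians of 0.20 in the control libraries and 0.23 in the targeted ones, and chromosome 2 had medians of -0.19 and -0.30. Chromosome 3 stood at 0.22 with 6.40% of its genes called higher, and chromosome X at 0.19, whereas the targeted libraries gave -0.02 and -0.14 there. The difference between the sgSCR libraries on these 5 chromosomes was at most 0.03 in size. It was larger on chromosome 19, where sgSCR 1 minus sgSCR 2 had a median of -0.12. There the control comparison gave -0.18, with -0.20 from shSCR 1 and -0.06 from shSCR 2, and the targeted libraries gave -0.05. No test was made of these medians, and copy number was not measured.

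**Figure D5:**
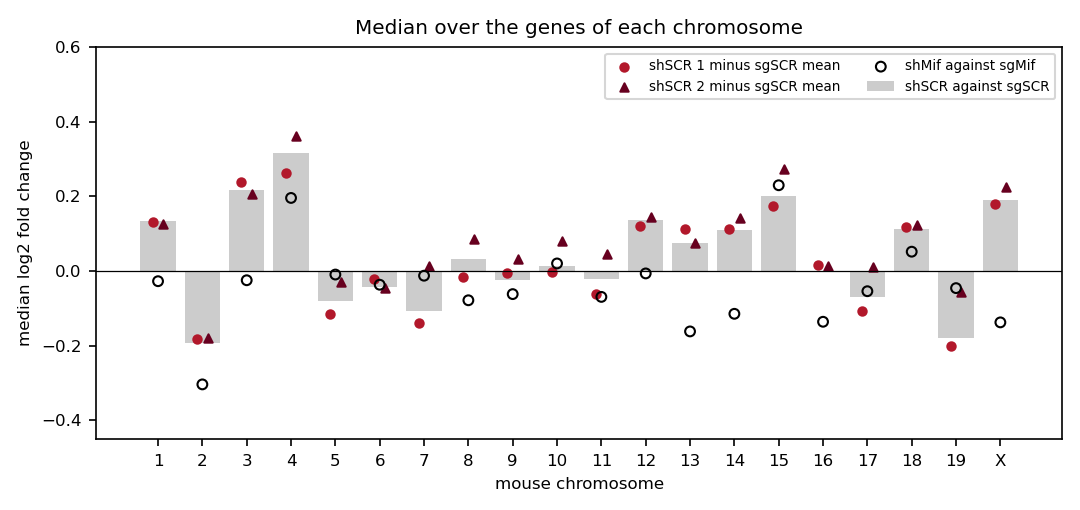
Median log2 fold change over the genes of each mouse chromosome in shSCR against sgSCR (bars), in each shSCR library against the sgSCR mean (filled points) and in shMif against sgMif (open circles). Chromosome 4 has the highest bar, 0.32, and both shSCR libraries lie on its side of 0.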

How the data were processed

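Estimated counts and TPM per transcript were deposited for 8 libraries, 2 in each of 4 groups, with groups and replicate numbers taken from the sample titles. The submitters' processing notes name Trimmomatic, Salmon and build mm10. Their versions and options, the kit, strandedness and read length are not given in the sources used. Expected counts (the NumReads column, not always whole) were deposited by the authors, 1 table per library, per the file headers. The deposited TPM values, relative to effective transcript length, entered no test here.

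Of 116546 transcripts, 115977 were joined to genes of GENCODE M21 without regard to version, and the 569 unmatched ones, 0.101 to 0.205% of reads, were left out. Estimated counts were summed per gene and rounded. Libraries held 19042235 to 51819308 reads, which limits the precision. Genes were kept by filterByExpr (minimum count 10, minimum total 15), scaled by TMM, and tested with the quasi-likelihood test of edgeR 4.0.16 in R 4.3.3 on 4 group means with 4 residual degrees of freedom, with Benjamini-Hochberg adjustment over all 16309 genes at 0.05. Adjusted p-values, ± values (SE of the log2 fold change) and calls come from that fit, all libraries included. A permutation of 2 against 2 libraries cannot go below 0.333, so sums over lists carry no test. Fits were tested on simulated data.

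Named genes are, from called protein-coding genes whose control groups did not overlap and whose mean log2 CPM reached 1, the 12 with the highest and the 12 with the lowest log2 fold change, then up to 4 members per list with the smallest p, the 5 highest and lowest of the difference of comparisons, the MIF family, Trp53 and Ccne1. Any other gene was named after its values were seen. The comparison, the 65 gene lists and the tests were chosen with earlier results of these data known. Alternatives were relative log expression (RLE) size factors, DESeq2 1.42.0, no filter, counts scaled by transcript length, protein-coding transcripts only, a replicate block, the control libraries alone, and leaving out each library in turn, which takes the lone library of a group to vary as much as other groups do. Intervals and floors (3 counts per library) cover counting error only. Where the authors' quantification split reads between overlapping or near-identical genes, these tables do not show it. Tables and figures were made with Python 3.11.15, pandas 2.3.3, numpy 2.4.6, scipy 1.17.1 and matplotlib 3.10.9.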

Additional observations from a re-analysis of the deposited data

Results flagged for a closer look

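For 11 named genes the change from guide to hairpin differed between the control and the Mif-targeted libraries, by edgeR's test of the difference itself over all genes. The values are differences of log2 fold changes, negative where the value of shSCR against sgSCR was below that of shMif against sgMif.

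The most negative were Cdsn at -9.27 (adjusted p = 0.0375), a fitted value that rests on 1 read in shSCR and is no bound, Chil3 at -8.35 (adjusted p = 0.0471) and Cxcl5 at -7.68 (adjusted p = 0.0487), which had under 0.1 CPM in both shSCR libraries. Chil3 was lower in shSCR and higher, without passing the test, in shMif. Rarres2 differed by -5.04 (adjusted p = 0.0471), Ccn5 by -4.16 (adjusted p = 0.0375), Il33 by -3.55 (adjusted p = 0.0375), Cth by -2.64 (adjusted p = 0.0375), Fbln5 by -2.31 (adjusted p = 0.0471) and Lox by -1.91 (adjusted p = 0.0471). Each of these 6 was called lower in shSCR and not called in shMif against sgMif. Nes differed by 1.48 (adjusted p = 0.0487), called higher in shSCR and not called in shMif against sgMif.

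Itgb4, the gene of an integrin of epithelial adhesion, differed by -3.53 (adjusted p = 0.0375). Its control groups overlapped, at 4.05 and 5.25 CPM in shSCR and 6.56 and 4.74 CPM in sgSCR, while both shMif libraries stood at 38.3 and 41.6 CPM and sgMif at 4.38 and 4.04.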

How the results depend on the processing

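The 655 genes called in shSCR against sgSCR compare with 667 under RLE size factors, 1948 with DESeq2, 2425 without the filter on low counts (24467 genes tested), 313 with counts scaled by transcript length, 510 with protein-coding transcripts only and 133 from the control libraries alone, where 30.1% of calls were higher in shSCR against 55.4% with all libraries. Leaving out 1 library gave 60 (sgSCR 2) to 1848 (shSCR 2). The sign of all 655 held in each fit except length scaling, where 652 kept it, and protein-coding transcripts, where 631 of 633 tested did. Beside the 328 genes of shMif against sgMif stood 1132 with DESeq2, 1407 without the filter, 90 with length scaling and 19 (shMif 1) to 526 (shSCR 1) with 1 library left out. Beside the 15 genes of the difference stood 654 with DESeq2, 1306 without the filter, 0 with length scaling (2341 at an unadjusted p under 0.05) or protein-coding transcripts only (2166), and 0 to 527 (shSCR 2) with 1 library left out. More genes were tested without the filter and fewer with protein-coding transcripts. The cause was not tested. The direction of no named gene that was called reversed. Called genes were chosen by the main fit to the same libraries, so their kept signs are no separate support. Of the list medians under these settings, 933 moved by less than the spread between replicates and 91 by more.

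The labels do not say that a replicate number marks a shared animal, batch or day, and each comparison has 2 pairs only. Deviations of same-numbered libraries correlated at 0.154 between shSCR and sgSCR, and at 0.154 to 0.371 over all pairs of groups. With the replicate number as a block, 994 genes were called in shSCR against sgSCR (494 higher, 500 lower), 544 in shMif against sgMif and 68 in the difference, and the control libraries alone with this block gave 1123. Depth limits genes near 0 reads.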
